A study of Mus musculus with 10 samples.

Results

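The comparison described here is that of control mouse pancreas at embryonic day 14.5 (E14.5) with control pancreas at E13.5, across all expressed genes of a bulk RNA sequencing count table. The members are all 6 libraries whose labels give a control genotype, 3 at E14.5 and 3 at E13.5, out of 10 libraries in the series. The rule that chose them used labels alone, but it and the gene lists below were set with earlier results of these data known. Controls at both stages were pools of Fgf9 +/+ and +/- embryos of the Fgf9-LacZ line, kept on a C57BL/6J background, so some embryos in each pool carry 1 disrupted copy of Fgf9, a secreted fibroblast growth factor gene. The pools held 8, 7 and 6 pancreata at E14.5 and 12, 7 and 12 pancreata at E13.5. The other 4 libraries came from null-labelled littermates, 2 at E14.5 and 2 at E13.5. Their values are given below only beside those of the controls. They were part of the main fit, however, and so entered the filter, the scaling and the shared estimate of spread behind every control call. Whether each pool was a litter of its own is not stated in the labels, and the tests therefore rest on the spread among pools, which may be partly technical.

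In the mouse these days fall in the secondary transition, when the branching pancreatic epithelium commits cells to enzyme-secreting acini, to ducts and to hormone-producing endocrine cells. Acinar fate is driven by the bHLH factor Ptf1a, which first acts with Rbpj and then with its paralogue Rbpjl in the PTF1 complex on the promoters of digestive enzyme genes. Endocrine cells arise from progenitors that briefly express Neurog3, and glucagon cells appear ahead of the main wave of insulin and somatostatin cells.

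Genes that were higher at E14.5 included 21 of 37 digestive enzyme and secretory product genes, 4 of 10 acinar transcription factor genes and the hormone genes Ins1, Ins2, Iapp and Sst of beta and delta cells. Embryonic globins, the chromatin protein gene Hmga2 and a group of genes that includes the matrix gene Tgfbi were lower. Genes of progenitors, of endocrine commitment and of the cell cycle did not pass the test. EdgeR's quasi-likelihood test with Benjamini-Hochberg adjustment called 147 genes higher at E14.5 (0.778% of the 18898 tested) and 64 lower (0.339%), at an adjusted p under 0.05. Among the 147 higher genes the median fold was 3.14, with 109 at 2-fold or more and 51 at 4-fold or more. Among the 64 lower genes the median fold was 2, with 31 at 2-fold or more and 4 at 4-fold or more. The median log2 fold change over all genes was 0.007. Single-gene levels are given below as CPM, the count scaled by library total and TMM factor. Sums over genes, and the levels of the markers Gkn1, Cdx2 and Sox2, are given as CPM of the library total.

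**Figure D1:**
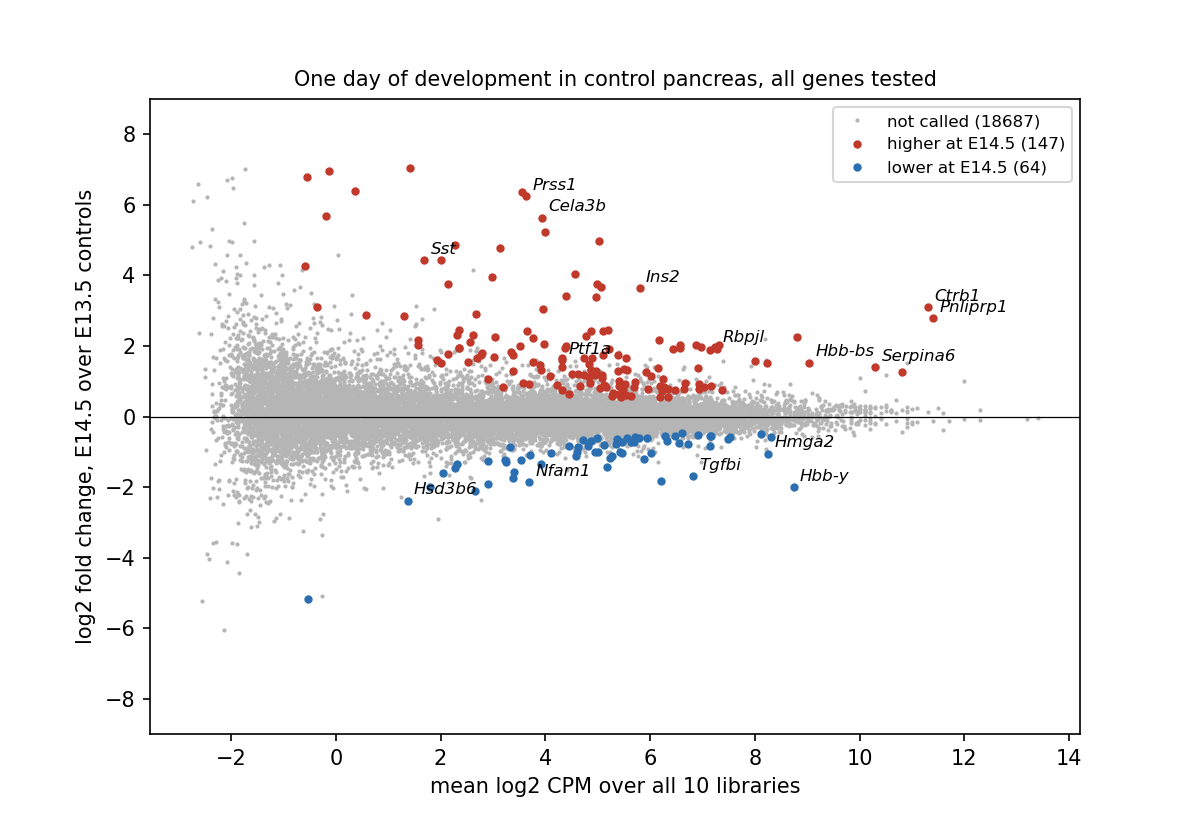
Log2 fold change of E14.5 over E13.5 controls (vertical axis) against mean log2 CPM over all 10 libraries (horizontal axis), 1 point a gene. The 147 genes called higher reach larger folds than the 64 called lower, and both stand among uncalled genes of similar fold at low levels.

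These calls are thin, and every adjusted p given below should be read with that in mind. The adjusted p of the 211 called genes ran from 0.0064, for the collagen gene Col6a6, to 0.05. Leaving out E13.5 control 1 gave 1 call higher and 0 lower, leaving out E13.5 control 2 gave 0 of either (2479 genes at an unadjusted p under 0.05), and leaving out E13.5 control 3 gave 3 higher and 1 lower. Leaving out E14.5 control 2 gave 0 of either (1679 genes at an unadjusted p under 0.05), leaving out E14.5 control 3 gave 11 higher and 4 lower, and 0 of the 211 genes stayed called without each of the 6 libraries in turn. Without E14.5 control 1 the counts were 728 and 482, and all 211 genes were among them. In all 211 called genes the libraries of the 2 stages did not overlap. Among all genes tested this held for 9.93% with E14.5 higher and 10.6% with E14.5 lower. None of the 71 called genes among the 152 chosen for naming turned its sign under any alternative, while 14 of the 81 uncalled ones did under at least 1. The calls came from these same libraries, so both results were largely fixed by the selection and add no weight to the calls. With DESeq2 the counts were 630 and 455, again with all 211 genes among them, and with limma-voom they were 31 and 26. As a background for the list counts below, 15.5% of all genes tested had an unadjusted p under 0.05, DESeq2 called 5.74% and limma-voom 0.302%, and 51% had a positive and 49% a negative log2 fold change.

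The E14.5 libraries did not stand at the same point. On the first principal component of the 6 control libraries, which held 34.2% of the variance, E14.5 controls 1, 2 and 3 lay at -5.45, 55.5 and 56.7, against -38, -38.6 and -30.1 for E13.5 controls 1, 2 and 3. On the second, which held 26.1%, they lay at 47.5, 11 and -24.4, against 42.7, -40.3 and -36.5. Both libraries numbered 1 thus stood together at 1 end of the second component. E14.5 control 1 was the E14.5 library closest to the E13.5 mean for 136 of the 147 higher genes (92.5%) and 55 of the 64 lower genes (85.9%). The median log2 difference of the higher genes from the E13.5 control mean was 0.86, 1.89 and 1.63 in E14.5 controls 1, 2 and 3. The labels give no dissection time or litter for E14.5 control 1, and its place between the stages was not tested against any cause. The E14.5 controls held between 18321734 and 19254562 counts and the E13.5 controls between 20049814 and 21082589, so depth was close across libraries. Mitochondrial genes took 2.3 to 2.87% of counts at E14.5 and 2.31 to 3.39% at E13.5. Genes with at least 1 count numbered 27402, 23721 and 22381 in E14.5 controls 1, 2 and 3, and 25908, 21655 and 22289 in E13.5 controls 1, 2 and 3, so both libraries numbered 1 had the most.

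Markers of the labelled tissue were present, with epithelial, acinar, endocrine and mesenchymal genes at high levels at both stages. The stomach gene Gkn1 was at most 0.0546 CPM at E14.5 and 0 at E13.5, and the intestinal gene Cdx2 was at most 0.104 CPM at E14.5 and 0.474 CPM at E13.5. Sox2, the remaining stomach and intestine marker, was at most 0.987 CPM at E14.5 and 1.02 CPM at E13.5. Other genes listed for stomach and intestine were present. Barx1 was at 63.3 to 82.1 CPM at E14.5 and 78.1 to 103 CPM at E13.5, and Vil1 at 8.23 to 20.5 CPM at E14.5 and 6.89 to 10.2 CPM at E13.5. The summed level of 4 epithelial markers (Epcam, Cdh1, Krt8 and Krt18) was 1670 to 2470 CPM at E14.5 and 1240 to 1840 CPM at E13.5, and the 4 genes did not pass the test. The summed level of 4 mesenchymal markers (Col1a1, Col3a1, Pdgfra and Vim) was 3980 to 6820 CPM at E14.5 and 4450 to 5120 CPM at E13.5, and these 4 genes did not pass either. In whole tissue, more cells of a type and more RNA per cell cannot be told apart, and this holds for every result below.

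Acinar genes gave the broadest change. Of 37 digestive enzyme and secretory product genes tested, 21 rose and 0 fell, against 0.778% of all genes called higher, and their median log2 fold change was 3.11 against 0.007 for all genes. The libraries did not overlap, with E14.5 higher, in 31 of the 37, against 9.93% of all genes tested. Together the listed genes took 1.09 to 3.73% of all counts at E14.5 and 0.367 to 0.606% at E13.5. Without E14.5 control 1 there were 30 higher, without both controls numbered 1 there were 27, with DESeq2 28, and with limma-voom 1. Filtering by expression admits genes that are high in 1 group alone. Members that passed it only through the E14.5 libraries were bound to be higher there, and how many did so was not counted. The median and the counts of called and of non-overlapping genes, all over genes that passed it, carry this limit.

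The 2 most abundant enzyme transcripts led in absolute terms. Ctrb1 (ENSMUSG00000031957, chromosome 8, 111686519 to 111691010), which encodes a chymotrypsinogen, was at 2850, 13600 and 9530 CPM in E14.5 controls 1, 2 and 3, against 588, 1180 and 1240 CPM in E13.5 controls 1, 2 and 3. All E14.5 libraries lay above all E13.5 libraries, with E14.5 control 1 nearest to them. The log2 fold change was 3.11 (SE 0.553, 8.65-fold, edgeR adjusted p = 0.031). Pnliprp1 (chromosome 19, 58728887 to 58744169), a lipase-related protein gene, was at 2800, 12300 and 10200 CPM at E14.5, against 807, 1430 and 1420 CPM at E13.5 (log2 fold change 2.79, SE 0.511, edgeR adjusted p = 0.033). Per kilobase of exon, Ctrb1 averaged 9850 CPM at E14.5 and 1140 CPM at E13.5, and Pnliprp1 averaged 3800 CPM at E14.5 and 549 CPM at E13.5. The colipase gene Clps, whose product is the cofactor of pancreatic lipase, rose 4.76-fold (edgeR adjusted p = 0.04), with 458, 1530 and 1130 CPM at E14.5 against 168, 228 and 258 CPM at E13.5.

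The steepest folds were in enzymes that were at low levels at E13.5. Cela3b (chromosome 4, 137420999 to 137430540), an elastase gene, was at 16.3, 312 and 112 CPM at E14.5, against 2.61, 3.33 and 2.88 CPM at E13.5 (log2 fold change 5.64, SE 1.03, edgeR adjusted p = 0.033). Cpb1 (chromosome 3, 20248264 to 20275733), which encodes procarboxypeptidase B, was at 10.3, 196 and 112 CPM at E14.5, against 2.42, 2.91 and 3.18 CPM at E13.5 (log2 fold change 5.23, SE 0.957, edgeR adjusted p = 0.033). In both genes E14.5 control 1 was above every E13.5 library and far below the other E14.5 libraries. Cela2a, another elastase gene, was at 34.1, 481 and 246 CPM at E14.5, against 6.85, 4.38 and 13.2 CPM at E13.5, and it overlaps the enzyme gene Ctrc on the same strand, so reads of the pair may be split between them. Cela1 rose 4.05-fold (edgeR adjusted p = 0.043), with 161, 514 and 412 CPM at E14.5 against 56.8, 102 and 110 CPM at E13.5.

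Trypsinogen genes formed a block on chromosome 6. Between 41302269 and 41548352 on that chromosome, 9 of the 11 genes tested rose. They were Try4, Try5, Try10, Prss3, Gm5771, Gm10334, Prss1, Prss2 and, at the far end of the block, the T cell receptor segment Trbc2. Prss1 was at 13.6, 231 and 181 CPM at E14.5, against 0.931, 1.62 and 3.08 CPM at E13.5 (log2 fold change 6.24, SE 1, edgeR adjusted p = 0.022). Trypsinogen copies are nearly identical and share reads, so single values are uncertain and the sum is firmer. Summed over 8 trypsinogen genes, the level was 111, 940 and 686 CPM at E14.5, against 24.5, 23.6 and 47.5 CPM at E13.5. The 7 amylase genes, which also share reads, summed to 45.4, 256 and 173 CPM at E14.5, against 12.2, 18.9 and 8.98 CPM at E13.5. Low counts limit a few members: Try4 had 4 counts, Amy2a1 6, Reg3d 7 and Rnase1 9 over the 3 E13.5 libraries, so their fitted folds are loose.

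Some enzymes already expressed at E13.5 did not pass. Cpa1, which encodes procarboxypeptidase A and marks early multipotent tips, was at 2190, 4710 and 3780 CPM at E14.5, against 861, 1390 and 1440 CPM at E13.5. Its libraries did not overlap, and its log2 fold change of 1.53 (SE 0.337, edgeR adjusted p = 0.052) fell just short of the threshold. The amylase gene Amy2a5 likewise missed the threshold (edgeR adjusted p = 0.056, log2 fold change 4.57), on 12 counts over the 3 E13.5 libraries.

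**Figure D2:**
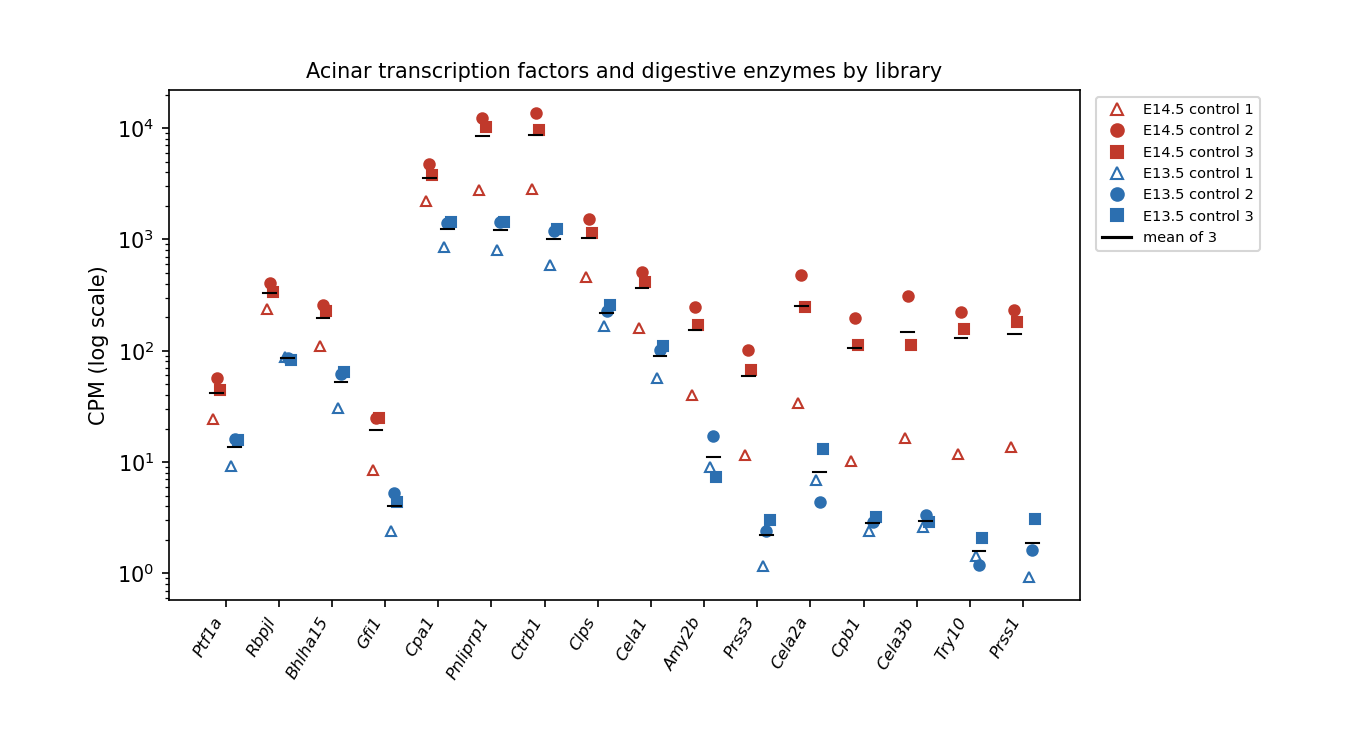
CPM (log scale) of 4 acinar transcription factors and 12 enzyme or cofactor genes in each of the 3 E14.5 and 3 E13.5 control libraries, with the mean of 3 as a bar. Open triangles mark the libraries numbered 1, and E14.5 control 1 lies between the other E14.5 libraries and the E13.5 libraries, as for Prss1 at 13.6 CPM.

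Of 10 acinar transcription factor genes tested, 4 rose and 0 fell, against 0.778% of all genes called higher, with a median log2 fold change of 0.95. They were Ptf1a, Rbpjl, Bhlha15 and Gfi1. Ptf1a (chromosome 2, 19445663 to 19447501) was at 24.4, 56.4 and 44 CPM at E14.5, against 9.17, 16.2 and 15.9 CPM at E13.5 (log2 fold change 1.6, SE 0.327, edgeR adjusted p = 0.043). Rbpjl (chromosome 2, 164403141 to 164415448), its partner in the mature PTF1 complex, was at 236, 408 and 337 CPM at E14.5, against 87.6, 86.7 and 83.3 CPM at E13.5 (log2 fold change 1.93, SE 0.246, edgeR adjusted p = 0.012). Rbpjl showed the tightest E13.5 values of these genes, and even E14.5 control 1 stood well above them. It overlaps Matn4 on the opposite strand, and the strand setting of the counting is not given in the sources used here. Bhlha15, also called Mist1, which organises the secretory apparatus of acinar cells, rose 3.8-fold (edgeR adjusted p = 0.039). Gfi1, a zinc finger repressor, rose 4.82-fold (edgeR adjusted p = 0.033), with 8.53, 25.1 and 24.7 CPM at E14.5 against 2.38, 5.29 and 4.42 CPM at E13.5. Gata4, which also marks early progenitors, stood at 0.95 on the log2 fold scale (edgeR adjusted p = 0.074).

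The promoters of 4 of the enzyme genes that rose are shown because they hold the E-box CACCTG, a form of the site read by the bHLH subunits of the PTF1 complex. The windows are RefSeq sequence on GRCm38.p6, 300 bases long, from 250 bases before to 50 after the gene's start, 5′ to 3′ on the gene's strand, with CACCTG or its reverse complement CAGGTG in capitals. They are Cela1 at chr15:100687871-100688170 (minus strand), Cela3b at chr4:137430471-137430770 (minus), Prss1 at chr6:41458680-41458979 (plus) and Amy2b at chr3:113156678-113156977 (minus).
Cela1: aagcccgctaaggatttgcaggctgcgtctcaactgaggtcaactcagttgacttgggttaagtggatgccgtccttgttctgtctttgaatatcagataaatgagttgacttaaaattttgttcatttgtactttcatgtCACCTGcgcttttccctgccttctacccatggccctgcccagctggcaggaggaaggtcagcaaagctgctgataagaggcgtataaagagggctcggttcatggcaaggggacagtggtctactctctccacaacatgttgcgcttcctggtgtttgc
Cela3b: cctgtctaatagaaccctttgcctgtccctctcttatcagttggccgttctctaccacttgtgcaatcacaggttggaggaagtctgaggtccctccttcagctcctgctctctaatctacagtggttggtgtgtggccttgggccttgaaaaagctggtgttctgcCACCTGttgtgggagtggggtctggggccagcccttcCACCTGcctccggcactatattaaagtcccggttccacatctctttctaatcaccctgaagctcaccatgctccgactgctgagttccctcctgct
Prss1: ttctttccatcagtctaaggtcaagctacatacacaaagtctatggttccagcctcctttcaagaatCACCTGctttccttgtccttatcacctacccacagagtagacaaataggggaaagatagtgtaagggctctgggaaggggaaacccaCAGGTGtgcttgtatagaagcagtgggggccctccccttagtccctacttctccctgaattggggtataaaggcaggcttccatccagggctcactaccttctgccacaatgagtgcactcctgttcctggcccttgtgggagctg
Amy2b: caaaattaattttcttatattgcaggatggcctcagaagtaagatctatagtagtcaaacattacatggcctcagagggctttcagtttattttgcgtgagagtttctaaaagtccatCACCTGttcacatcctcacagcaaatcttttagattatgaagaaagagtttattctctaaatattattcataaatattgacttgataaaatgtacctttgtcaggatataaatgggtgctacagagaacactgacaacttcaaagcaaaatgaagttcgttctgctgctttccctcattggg
Searched on both strands, CACCTG occurred in 11 of the 16 windows matched for the 21 enzyme genes that rose, against 20.2% of all 32851 RefSeq promoter windows. The letters TTTCCCA, part of the site read by the Rbpj or Rbpjl subunit, occurred in 4 of the 16 windows, against 8.06% of all windows. Cela3b held a pair of E-boxes 83 and 46 bases upstream of the start, and Cela1 held 1 at 109 bases upstream. A match describes letters in a window and is not evidence of binding, and the matched genes include paralogues that share sequence.

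A few genes of protein secretion also rose. Of 45 genes of protein folding in the endoplasmic reticulum, N-glycosylation and secretion, 5 rose and 0 fell, against 0.778% of all genes called higher, and 40 did not pass. All 45 had a positive log2 fold change, against 51% of all genes, with a median of 0.54. Without E14.5 control 1 there were 29 higher, without both controls numbered 1 there were 21, with DESeq2 19 and with limma-voom 0. Erp27, which encodes a pancreas-enriched protein of the endoplasmic reticulum, was at 19.5, 78.6 and 65.1 CPM at E14.5, against 3.96, 7.72 and 8.2 CPM at E13.5 (log2 fold change 3.04, SE 0.489, edgeR adjusted p = 0.022). Sdf2l1, an endoplasmic reticulum chaperone component, and Ero1lb, an oxidase that forms disulphide bonds, rose 3.19-fold and 3.14-fold (edgeR adjusted p = 0.048 and 0.039). Sec61b and Ssr4, subunits of the translocon and of its associated complex, rose 1.71-fold and 1.73-fold (edgeR adjusted p = 0.045 and 0.035). The pattern of these 5 genes across libraries was that of the enzymes, with E14.5 control 1 lowest of the E14.5 libraries in each.

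Other abundant transcripts rose too. Serpina6, which encodes corticosteroid-binding globulin, was at 1880, 2880 and 2320 CPM at E14.5, against 904, 864 and 925 CPM at E13.5 (log2 fold change 1.39, SE 0.184, edgeR adjusted p = 0.012). Reep5, which shapes the tubular endoplasmic reticulum, and Tmem97, a sterol-linked membrane protein gene, rose 2.87-fold and 2.96-fold (edgeR adjusted p = 0.047 and 0.048). Gm23935, annotated as a microRNA of 57 bases on chromosome 16, had 2160, 4270 and 2630 CPM at E14.5 against 1390, 1360 and 992 CPM at E13.5 (edgeR adjusted p = 0.033). A poly(A) library of this kind is not made to count so short a transcript, so that value is given only as the table holds it. The water channel gene Aqp12, known from acinar cells, had 3 counts in all at E13.5 and 0.602, 12.1 and 5.23 CPM at E14.5.

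Hormone genes of beta and delta cells rose, while the glucagon gene did not. Of 12 hormone genes tested, 5 rose and 0 fell, against 0.778% of all genes called higher. They were Ins1, Ins2, Iapp, Sst and Npy, and the median of the 12 was 0.89 on the log2 scale. All 5 were also called without E14.5 control 1 and with DESeq2, each of which called 1 further hormone gene lower, and limma-voom called 3 higher. These genes are a small part of the RNA: the listed hormones took 0.0745 to 0.125% of counts at E14.5 and 0.0763 to 0.104% at E13.5. Gcg made up 57.5, 43.1 and 54% of the hormone counts in E14.5 controls 1, 2 and 3, against 85.1, 83.8 and 83.7% in E13.5 controls 1, 2 and 3.

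Ins2 (chromosome 7, 142678656 to 142743381), an insulin gene, was at 93.1, 264 and 263 CPM at E14.5, against 11, 21 and 17.9 CPM at E13.5. The stages did not overlap, and even the lowest E14.5 library was several times the highest at E13.5. The log2 fold change was 3.64 (SE 0.471, 12.4-fold, edgeR adjusted p = 0.012), with a range of 3.41 to 3.99 over the alternatives. Ins1 (chromosome 19, 52264297 to 52265476), the other mouse insulin gene, was at 37.3, 89.8 and 80.9 CPM at E14.5, against 2.7, 7.43 and 9.39 CPM at E13.5 (log2 fold change 3.42, SE 0.461, edgeR adjusted p = 0.012). The insulin pair share much sequence, and their sum was 135, 335 and 325 CPM at E14.5, against 14.3, 28.3 and 27.4 CPM at E13.5. Iapp, which encodes the amylin co-secreted with insulin, was at 44.3, 90.4 and 106 CPM at E14.5, against 12.1, 17.2 and 14.8 CPM at E13.5 (5.46-fold, edgeR adjusted p = 0.012).

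Sst (chromosome 16, 23889573 to 23890958), the somatostatin gene of delta cells, was at 5.87, 22.8 and 14.1 CPM at E14.5, against 0.885, 0.619 and 0.447 CPM at E13.5. It had the largest fold of the 5 hormone genes that rose, at a log2 fold change of 4.43 (SE 0.539, edgeR adjusted p = 0.012). Npy, the neuropeptide Y gene, rose 4.09-fold (edgeR adjusted p = 0.048) and went the other way among the E14.5 libraries, with 8.78 CPM in control 1 against 3.06 and 3.67 CPM in controls 2 and 3. Gcg (chromosome 2, 62474530 to 62483650), the glucagon gene of alpha cells, was at 414, 452 and 714 CPM at E14.5, against 622, 810 and 864 CPM at E13.5. Its libraries overlapped (log2 fold change -0.54, SE 0.297, edgeR adjusted p = 0.42), and it was called in 2 of 16 alternatives, as lower. Per kilobase of exon, Gcg averaged 353 CPM at E14.5 and 512 CPM at E13.5, while Ins1 averaged 65.3 CPM at E14.5 and 6.13 CPM at E13.5.

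Among 36 endocrine granule, prohormone processing and islet transcription factor genes, 1 rose and 0 fell, with a median of 0.24. It was Mafa, a beta cell transcription factor gene, at 5.07, 12.2 and 17 CPM at E14.5 against 1.54, 3.57 and 1.69 CPM at E13.5 (5.01-fold, edgeR adjusted p = 0.043). None of the 23 endocrine progenitor genes was called by edgeR, with 4 at an unadjusted p under 0.05, 2 called by DESeq2 and 0 by limma-voom. Neurog3, the gene that commits cells to the endocrine fate, was at 87.3, 73.8 and 108 CPM at E14.5 and 62.5, 122 and 109 CPM at E13.5, with the stages overlapping (log2 fold change -0.13, SE 0.257, edgeR adjusted p = 0.88).

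The promoter of Ins1, at chr19:52264047-52264346 (plus strand, RefSeq on GRCm38.p6), is shown because it holds GCCATCTG, the E-box of rodent insulin promoters, in capitals. It stands 86 bases upstream of the annotated start and again 40 bases after it. Where transcription begins in these cells was not tested, so both distances hold only for the annotated start.
Ins1: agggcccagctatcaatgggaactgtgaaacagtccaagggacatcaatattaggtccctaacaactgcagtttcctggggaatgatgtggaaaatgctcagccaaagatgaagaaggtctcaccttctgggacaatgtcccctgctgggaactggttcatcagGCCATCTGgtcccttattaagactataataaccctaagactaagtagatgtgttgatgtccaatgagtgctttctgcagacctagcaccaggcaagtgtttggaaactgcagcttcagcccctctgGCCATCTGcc
GCCATCTG, searched on both strands, was found in 1.32% of all 32851 windows.

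**Figure D3:**
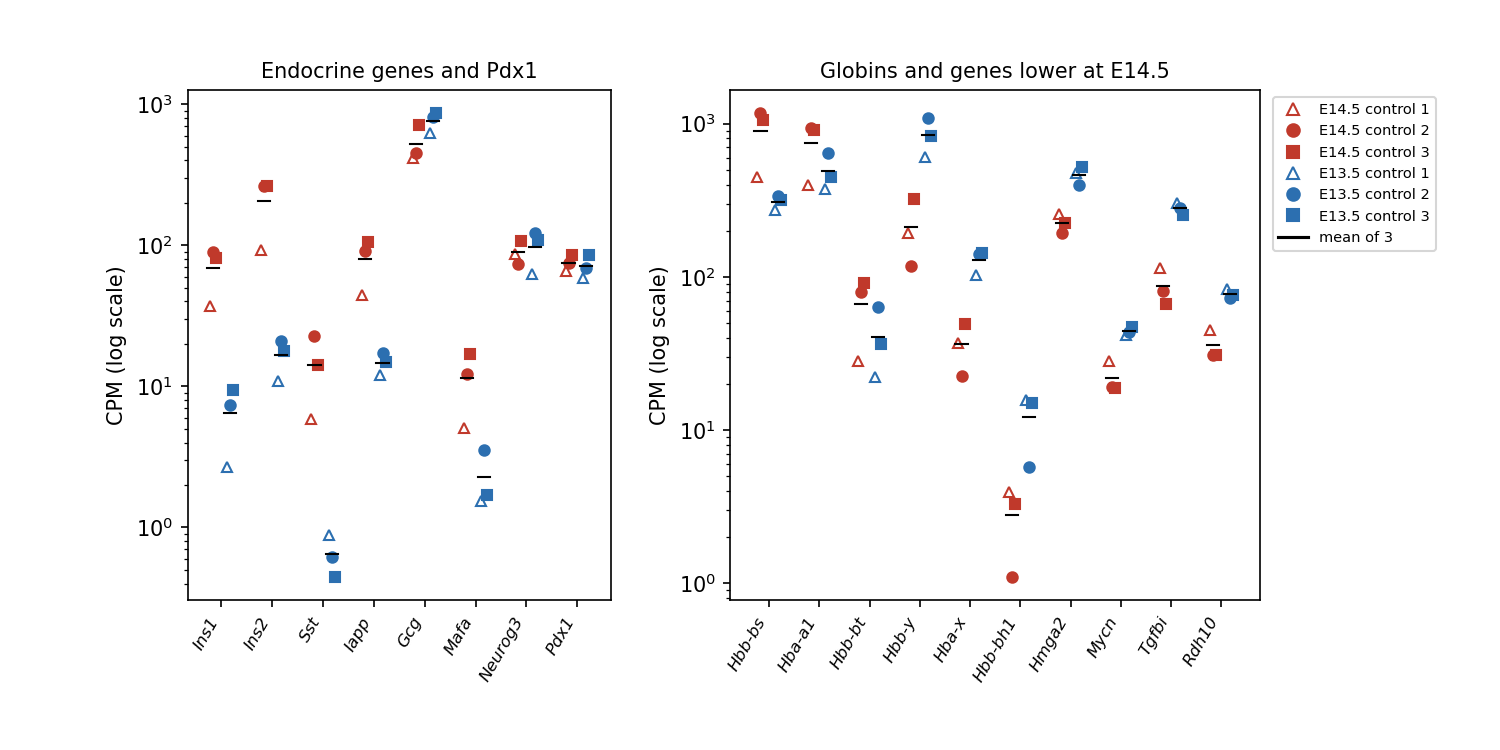
CPM (log scale) of endocrine genes and Pdx1 (left) and of globins and genes lower at E14.5 (right) in each of the 3 E14.5 and 3 E13.5 control libraries, with the mean of 3 as a bar. Ins2 lies at 93.1 to 264 CPM at E14.5 and 11 to 21 CPM at E13.5 without overlap, while Gcg, Neurog3 and Pdx1 overlap.

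Progenitor factors did not pass the test. Of 20 progenitor and trunk transcription factor genes 0 were called by edgeR, with a median of -0.01, 6 at an unadjusted p under 0.05, 1 called by DESeq2 and 0 by limma-voom. Pdx1, required for the formation of the pancreas, was at 65.4, 74.9 and 85 CPM at E14.5 and 58.6, 69 and 85.9 CPM at E13.5 (log2 fold change 0.08, SE 0.179, edgeR adjusted p = 0.9). Sox9, which maintains progenitors and trunk cells, was at 130, 116 and 122 CPM at E14.5 and 131, 162 and 251 CPM at E13.5, and Nkx6-1, a trunk factor, at 132, 115 and 131 CPM at E14.5 and 119, 154 and 228 CPM at E13.5. In both of these genes the highest library was E13.5 control 3, and neither passed (log2 fold changes -0.56 and -0.4, edgeR adjusted p = 0.29 and 0.48).

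Of 22 duct genes 2 rose and 0 fell, against 0.778% of all genes called higher, with a median of 0.27. Krt19, a keratin of duct cells that mesothelium also expresses, was at 76.3, 94 and 80.7 CPM at E14.5, against 48.2, 53.7 and 45.3 CPM at E13.5 (1.7-fold, edgeR adjusted p = 0.018). Aqp1, a water channel gene of ducts and small vessels, rose 1.93-fold (edgeR adjusted p = 0.026). Krt19 was also the 1 called of 18 mesothelium genes, while the mesothelial markers Wt1, Upk3b and Msln were not called. Krt8 and Krt18, the paired keratins of simple epithelia, had log2 fold changes of 0.46 and 0.69 and did not pass (edgeR adjusted p = 0.42 and 0.22).

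Cell cycle genes did not pass the test. Of 53 cell cycle and DNA replication genes, 0 were called by edgeR, DESeq2 or limma-voom, with 1 at an unadjusted p under 0.05. Their log2 fold changes ran from -0.28 to 0.43, with a median of 0.04. Mki67, a proliferation antigen gene, was at 620, 783 and 755 CPM at E14.5 and 677, 658 and 469 CPM at E13.5, and Top2a, a topoisomerase gene, at 640, 763 and 827 CPM at E14.5 and 704, 801 and 695 CPM at E13.5.

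Genes of the fetal growth programme regulated by Lin28 and let-7 microRNAs gave 2 lower and 0 higher of 17. Hmga2 (chromosome 10, 120361275 to 120476469), a chromatin protein gene with many let-7 sites in mammals, was at 258, 192 and 225 CPM at E14.5, against 475, 398 and 523 CPM at E13.5. All E14.5 libraries were below all E13.5 libraries, and E14.5 control 1 was the highest of the 3 (log2 fold change -1.05, SE 0.141, 2.07-fold lower, edgeR adjusted p = 0.012). Mycn, a Myc family transcription factor gene of early embryonic tissue, was at 28.2, 19 and 18.7 CPM at E14.5, against 41.9, 43.7 and 46.7 CPM at E13.5 (log2 fold change -1, SE 0.178, edgeR adjusted p = 0.031). Both were also called by limma-voom and DESeq2. Lin28b itself was at 3.66, 1.56 and 1.73 CPM at E14.5 and 6.8, 3.14 and 2.63 CPM at E13.5, with overlap (log2 fold change -0.85, SE 0.455, edgeR adjusted p = 0.41), and Igf2bp3, an RNA-binding protein gene, stood at -0.33 (edgeR adjusted p = 0.27). Of 30 imprinted genes 1 fell and 0 rose: Slc38a4, an amino acid transporter gene, at 273, 239 and 269 CPM at E14.5 against 393, 417 and 353 CPM at E13.5 (edgeR adjusted p = 0.043). H19, the imprinted non-coding RNA gene beside Igf2, stood at 0.2 on the log2 fold scale (edgeR adjusted p = 0.48).

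Globins of blood in the pools differed by stage. Primitive red cells of the yolk sac express embryonic globins, and definitive cells of the fetal liver, which enter the circulation at about these days, express adult ones. Of 22 globin and erythroid genes 1 rose and 3 fell, against 0.778% of all genes called higher and 0.339% called lower. Hbb-y (chromosome 7, 103851749 to 103853216), an embryonic beta-like globin gene, was at 193, 117 and 320 CPM at E14.5, against 605, 1090 and 832 CPM at E13.5 (log2 fold change -2, SE 0.332, 4.01-fold lower, edgeR adjusted p = 0.025). Hba-x (chromosome 11, 32276400 to 32278116), the embryonic alpha-like gene, was at 37.2, 22.4 and 49.4 CPM at E14.5, against 102, 140 and 142 CPM at E13.5 (log2 fold change -1.81, SE 0.252, edgeR adjusted p = 0.012). Hbb-bh1, a further embryonic beta-like gene, was at 3.96, 1.1 and 3.28 CPM at E14.5, against 15.6, 5.76 and 15 CPM at E13.5 (edgeR adjusted p = 0.048). In each of these genes the stages did not overlap, and the 3 were called with DESeq2 and without E14.5 control 1.

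The adult beta globin gene Hbb-bs (chromosome 7, 103826534 to 103828096) was at 450, 1170 and 1050 CPM at E14.5, against 271, 338 and 315 CPM at E13.5 (log2 fold change 1.53, SE 0.294, edgeR adjusted p = 0.039). The adult genes Hba-a1 and Hbb-bt did not pass (log2 fold changes 0.62 and 0.7, edgeR adjusted p = 0.42 and 0.58), and each has a near-identical copy with which it shares reads. For Hbb-bt that copy is Hbb-bs, so the single values of both are uncertain. Shares within each library set the globins against one another. Hbb-y and Hbb-bh1 together made up 29.2, 8.66 and 22.2% of beta-like globin counts in E14.5 controls 1, 2 and 3, against 67.9, 73.2 and 70.7% in E13.5 controls 1, 2 and 3. Hba-x made up 7.96, 2.2 and 4.84% of alpha-like globin counts at E14.5, against 20.2, 17 and 22.5% at E13.5. In both measures E14.5 control 1 had the highest embryonic share of the E14.5 libraries, and all 3 lay below every E13.5 library. The 3 embryonic globins summed to 243, 133 and 352 CPM at E14.5 and 754, 1230 and 992 CPM at E13.5, and the 4 adult ones to 941, 2130 and 1990 CPM at E14.5 and 727, 1080 and 843 CPM at E13.5. The adult sums overlapped between the stages, with E14.5 control 1 below E13.5 control 2.

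The promoters of 1 globin gene that fell and 1 that rose, from the same cluster on chromosome 7, are shown for comparison. They are Hbb-y at chr7:103853158-103853457 and Hbb-bs at chr7:103827879-103828178, both on the minus strand, as RefSeq windows on GRCm38.p6. Capitals mark CCAAT and, in Hbb-bs, CACACCC, the letters of the erythroid CACCC element bound by Klf1.
Hbb-y: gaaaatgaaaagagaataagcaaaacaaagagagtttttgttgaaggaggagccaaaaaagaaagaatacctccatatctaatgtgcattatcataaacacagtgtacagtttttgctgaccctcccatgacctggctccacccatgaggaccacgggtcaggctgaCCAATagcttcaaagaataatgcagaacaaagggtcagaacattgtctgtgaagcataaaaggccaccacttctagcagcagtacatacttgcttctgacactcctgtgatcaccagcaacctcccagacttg
Hbb-bs: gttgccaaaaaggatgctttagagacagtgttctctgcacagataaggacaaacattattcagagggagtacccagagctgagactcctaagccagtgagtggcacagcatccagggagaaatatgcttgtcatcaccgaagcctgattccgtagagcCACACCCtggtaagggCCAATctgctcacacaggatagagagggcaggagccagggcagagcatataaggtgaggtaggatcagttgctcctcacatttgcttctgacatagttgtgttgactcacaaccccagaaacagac
Both windows held CCAAT, at 83 bases upstream in Hbb-y and 76 bases upstream in Hbb-bs, and CACACCC stood only in that of Hbb-bs, at 92 bases upstream. On both strands CCAAT was found in 37.4% of all 32851 windows and CACACCC in 7.95%. The CACACCC letters are the only form searched, and their absence from a window says nothing of other forms.

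Among genes of the mesenchyme, the calls were few. Of 57 fibroblast matrix genes 3 rose and 0 fell, against 0.778% of all genes called higher, with a median of 0.12. They were Postn, Lox and Thbs2, which encode periostin, a collagen cross-linking oxidase and a thrombospondin. Lox was at 155, 169 and 129 CPM at E14.5, against 80.6, 84.3 and 75.7 CPM at E13.5 (1.88-fold, edgeR adjusted p = 0.016). Postn rose 1.68-fold and Thbs2 2.02-fold (edgeR adjusted p = 0.039 and 0.026), and limma-voom called 3 of the 57 genes higher. Col1a1, the chain of type I collagen, was at 2240, 1690 and 1160 CPM at E14.5 and 1510, 1320 and 1400 CPM at E13.5, with overlap (log2 fold change 0.27, SE 0.228, edgeR adjusted p = 0.65). Igfbp7, a secreted binding protein gene of vessels and stroma that overlaps Polr2b on the opposite strand, rose 2.63-fold (edgeR adjusted p = 0.015) as the 1 called of 18 genes of the insulin-like growth factor system.

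Tgfbi (chromosome 13, 56609523 to 56639562), a secreted matrix protein gene induced by TGF-beta, was at 115, 81.1 and 66.9 CPM at E14.5, against 304, 283 and 255 CPM at E13.5. It fell 3.2-fold (log2 fold change -1.68, SE 0.231, edgeR adjusted p = 0.012), and was the 1 called of 48 BMP and TGF-beta genes. Epha4, an ephrin receptor gene, and Sema5a, a semaphorin gene, fell 2.31-fold and 1.79-fold (edgeR adjusted p = 0.048 and 0.043), the 2 called of 46 guidance genes. Dcx, a microtubule protein gene of young neurons, fell 1.71-fold (edgeR adjusted p = 0.048), the 1 called of 33 neural genes. For the neural list the E14.5 libraries parted, with medians of 0.41, -0.69 and -0.6 on the log2 scale from the E13.5 control mean in E14.5 controls 1, 2 and 3.

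Of 41 mesenchyme transcription factor genes 0 were called by edgeR and 0 by limma-voom, while 18 were at an unadjusted p under 0.05 and DESeq2 called 8 lower and 0 higher. Their median was -0.35, 31 of 41 were negative (49% of all genes), and in 17 of 41 the libraries did not overlap with E14.5 lower, against 10.6% of all genes tested. Without E14.5 control 1, 9 were called lower. Nr2f2, a nuclear receptor gene, was at 165, 110 and 104 CPM at E14.5 and 270, 207 and 209 CPM at E13.5 (log2 fold change -0.86, SE 0.196, edgeR adjusted p = 0.056). Pdgfra, a receptor of mesenchymal cells, was at 125, 84.6 and 79.2 CPM at E14.5 and 211, 186 and 141 CPM at E13.5 (log2 fold change -0.9, SE 0.206, edgeR adjusted p = 0.056). In both genes E14.5 control 1 was the highest E14.5 library and the stages did not overlap. Barx1, a homeobox gene of stomach and spleen mesenchyme, stood at -0.34 on that scale (edgeR adjusted p = 0.33). The 27 Hox genes had a median of -0.5, with 0 called by edgeR or limma-voom, 3 called lower by DESeq2 and 8 at an unadjusted p under 0.05.

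Of 19 retinoic acid genes tested 1 rose and 3 fell, against 0.778% of all genes called higher and 0.339% called lower, with a median of -0.23. Aldh1a1, a retinaldehyde dehydrogenase gene, was at 19.4, 68.1 and 70.8 CPM at E14.5, against 7.82, 14.5 and 9.84 CPM at E13.5 (4.92-fold, edgeR adjusted p = 0.031). Rdh10, whose product makes retinaldehyde from retinol, was at 45.1, 31 and 30.8 CPM at E14.5, against 83.6, 73.1 and 76.2 CPM at E13.5 (2.18-fold lower, edgeR adjusted p = 0.015). Crabp2, which carries retinoic acid to its receptors, and the receptor gene Rxrg fell 3.98-fold and 2.38-fold from low levels (edgeR adjusted p = 0.033 and 0.048).

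**Figure D4:**
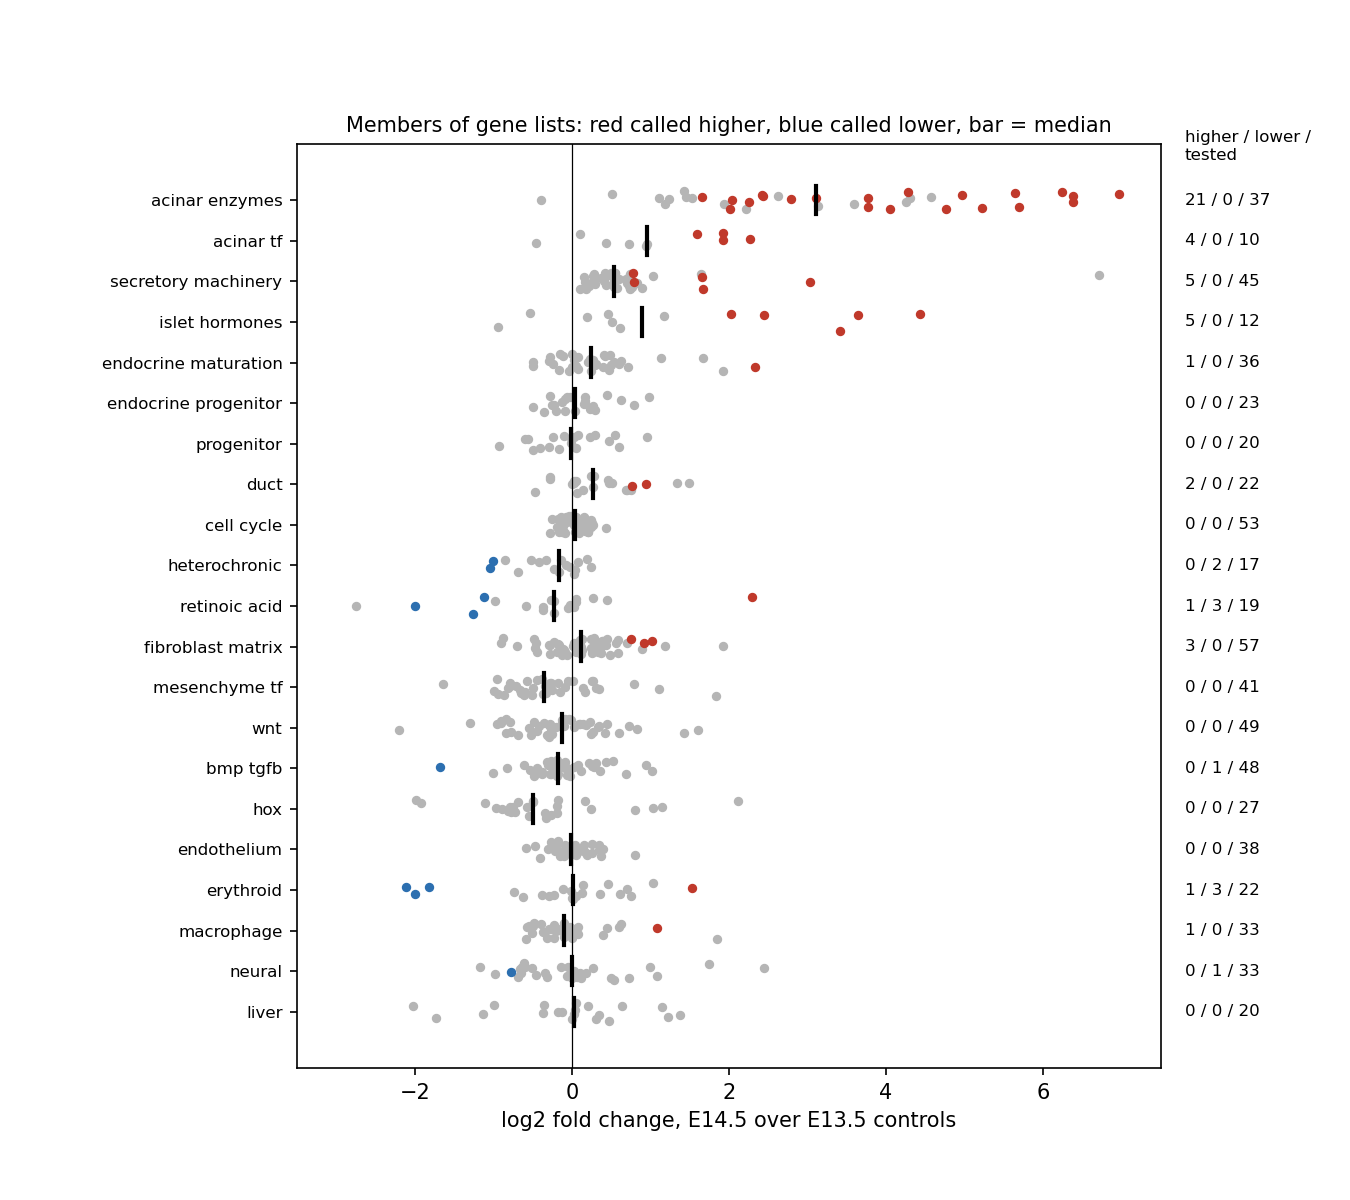
Log2 fold change of E14.5 over E13.5 controls (horizontal axis) for the tested members of 21 gene lists, 1 point a gene, red for called higher and blue for called lower, with the list median as a bar and the counts at the right. Called members gather in the acinar enzyme list (21 of 37), while the cell cycle list (0 of 53) lies between -0.28 and 0.43.

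Among the other genes with the largest falls, several stood at lower levels in null-labelled pancreas at E13.5 than in controls. Nfam1, an immune receptor gene of leukocytes, was at 10.9, 8.65 and 8.18 CPM in E14.5 controls, against 42.8, 29 and 28.9 CPM in E13.5 controls (log2 fold change -1.86, SE 0.219, edgeR adjusted p = 0.012). In null-labelled libraries it was at 9.1 and 5.84 CPM at E14.5 and 8.89 and 8.99 CPM at E13.5. Syt6, a synaptotagmin gene, was at 16.1, 10.3 and 11.5 CPM in E14.5 controls, against 62.8, 28.2 and 36.7 CPM in E13.5 controls (log2 fold change -1.75, edgeR adjusted p = 0.022), and in null-labelled libraries at 2.9 and 2.05 CPM at E14.5 and 3.86 and 4.47 CPM at E13.5. Slitrk5, a neuronal transmembrane protein gene, fell 3-fold in controls (edgeR adjusted p = 0.018), with 5.86 and 3.4 CPM at E14.5 and 7.55 and 5.12 CPM at E13.5 in null-labelled libraries. Tgfbi stood at 80.8 and 41.9 CPM in E14.5 null-labelled libraries and 87.6 and 84.5 CPM in E13.5 null-labelled libraries, and Rdh10 at 25.7 and 21.1 CPM at E14.5 and 22.4 and 28.3 CPM at E13.5. The null-labelled stage differences of these 5 genes were -0.26, -0.76, -0.45, -0.49 and -0.11 on the log2 scale, in the order named. The test of the difference between the 2 stage changes passed for none of them (edgeR adjusted p = 1 for each). It passed for Nfam1, Tgfbi and Rdh10 when the filter on low counts was dropped, and not in the other alternatives, so a smaller fall in null-labelled pancreas was not established.

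Hsd3b6, a steroid dehydrogenase gene, had the largest fall among called genes with a mean of at least 5 CPM at either stage, at 0.903, 0.865 and 1.56 CPM in E14.5 controls against 5.22, 6.57 and 5.62 CPM in E13.5 controls (log2 fold change -2.38, SE 0.361, edgeR adjusted p = 0.016). In null-labelled libraries its log2 stage difference was -3.21 (edgeR adjusted p = 0.015). Bves, a membrane protein gene of muscle and epithelium, Klk13, a kallikrein gene, and Abca8a, a lipid transporter gene, fell 3.75-fold, 3.05-fold and 2.72-fold in controls (edgeR adjusted p = 0.033, 0.039 and 0.034). Abundant genes with small falls were Rdx, the cytoskeletal linker radixin, and Smad5, a transducer of BMP signals, at 1.4-fold and 1.49-fold (edgeR adjusted p = 0.039 and 0.03).

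The remaining signalling lists gave few calls. Of 21 FGF ligands and receptors, 49 Wnt, 25 Notch and 15 Hedgehog genes, edgeR and limma-voom called 0. At an unadjusted p under 0.05 there were 5, 13, 8 and 3, and DESeq2 called 3, 6, 0 and 2. Fgf9, the disrupted gene of the line, was at 13.6, 8.76 and 6.96 CPM in E14.5 controls and 18.4, 11.3 and 16.2 CPM in E13.5 controls, with overlap (log2 fold change -0.64, SE 0.306, edgeR adjusted p = 0.34). Fgfr2, a receptor of the epithelium, stood at -0.45 (edgeR adjusted p = 0.13). Of the 17 FGF feedback genes 1 rose, the immediate early gene Egr1, at 21.1, 19.4 and 20.4 CPM at E14.5 against 11.5, 13.8 and 13.6 CPM at E13.5 (1.57-fold, edgeR adjusted p = 0.043), and it was also the 1 called of 28 immediate early and heat shock genes. In null-labelled libraries Egr1 was at 32.5 and 35.2 CPM at E14.5 and 34 and 33.7 CPM at E13.5.

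Among genes of metabolism, folds were mostly small. Of 34 hypoxia and glycolysis genes 2 rose, Egln3, a prolyl hydroxylase gene induced by hypoxia, and Pdk1, a kinase that restrains pyruvate oxidation (3.36-fold and 1.93-fold, edgeR adjusted p = 0.035 and 0.043), with a median of 0.33. Of 26 cholesterol and fatty acid synthesis genes 0 were called by edgeR or limma-voom and 8 by DESeq2, with 12 at an unadjusted p under 0.05 and a median of 0.42. Cytoplasmic ribosomal protein genes were positive in 44 of 45, against 51% of all genes, with a median of 0.19 and 0 called by edgeR or limma-voom, 1 by DESeq2 and 11 at an unadjusted p under 0.05. The listed ribosomal protein genes took 4.74 to 5.05% of all counts at E14.5 and 4.15 to 4.73% at E13.5. With library totals in place of TMM the median of all genes moved to -0.05, and no cause of the positive ribosomal values was tested.

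Other cell types gave single calls. Of 33 macrophage and leukocyte genes 1 rose, C1qa, a complement chain gene of macrophages, at 32.6, 67.9 and 45.5 CPM at E14.5 against 22.3, 21 and 25.5 CPM at E13.5 (2.12-fold, edgeR adjusted p = 0.048), while the macrophage receptor gene Csf1r stood at -0.49 on the log2 fold scale (edgeR adjusted p = 0.36). Of 38 endothelial genes edgeR and limma-voom called 0 and DESeq2 called 1, with 6 at an unadjusted p under 0.05. Of 20 liver genes edgeR and limma-voom called 0 and DESeq2 called 2, with 3 at an unadjusted p under 0.05, and Alb, the albumin gene, was at 38.7, 14.6 and 5.07 CPM at E14.5 and 8.57, 23 and 6.21 CPM at E13.5. Of 10 gonad, kidney and adrenal genes 1 rose, the nephrin gene Nphs1, which pancreas is also known to express, at 34.4, 58 and 57.4 CPM at E14.5 against 21.6, 18.5 and 21.4 CPM at E13.5 (2.43-fold, edgeR adjusted p = 0.043). EdgeR and limma-voom also called 0 of 44 basement membrane, 29 smooth muscle and pericyte, 21 striated muscle, 18 stomach and intestine, 45 junction, 38 matrix protease, 16 cell cycle inhibitor, 30 ribosome biogenesis, 33 oxidative phosphorylation and 13 mitochondrially encoded genes. DESeq2 called 9, 2, 0, 3, 8, 4, 3, 0, 2 and 0 of these, and an unadjusted p under 0.05 was reached by 16, 6, 0, 4, 15, 8, 7, 2, 8 and 0. None of 5 sex-linked genes was called by any of these tools, or reached an unadjusted p under 0.05. The control pools mixed sexes: Xist was at 774 to 1180 CPM at E14.5 and 640 to 2040 CPM at E13.5, and the Y-linked Ddx3y at 12.7 to 44.4 CPM at E14.5 and 15.2 to 35.4 CPM at E13.5. In null-labelled libraries Ddx3y was at 7.92 and 0 CPM at E14.5 and 20.1 and 27.5 CPM at E13.5. The share of male embryos was therefore not alike across those pools.

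**Figure D5:**
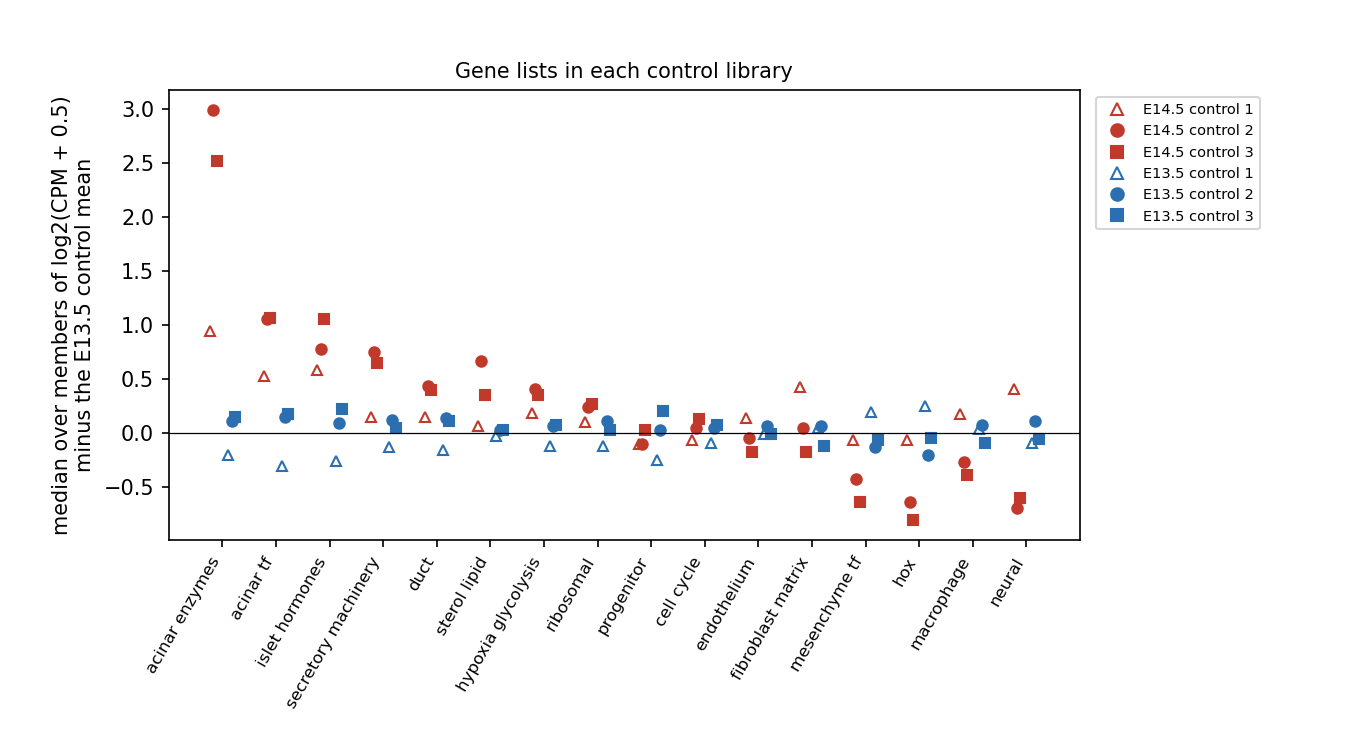
Median over the members of each list of log2(CPM + 0.5) minus the E13.5 control mean (vertical axis), in each of the 3 E14.5 and 3 E13.5 control libraries, with open triangles for the libraries numbered 1. E14.5 control 1 lies between the stages for acinar enzymes, at 0.95 against 2.99 and 2.52 in E14.5 controls 2 and 3, and on the other side of zero from them for neural genes.

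The same stage difference was measured in null-labelled pancreas. Its group means share no library with those of the controls, though its embryos were littermates of the controls. Both comparisons rest on a shared estimate of spread from all 10 libraries, so they are not fully independent. EdgeR called 47 genes (0.249% of those tested), 38 higher (0.201%) and 9 lower (0.0476%) at E14.5 in null-labelled libraries. Of the 147 genes higher in controls, 147 had the same sign and 25 were called in the same direction. Of the 64 lower in controls, 62 had the same sign and 6 were called in the same direction. Over all genes 69.7% had the same sign in both genotypes. The median log2 fold changes of the 147 genes were 1.57 in null-labelled and 1.65 in control libraries, and those of the 64 genes were -0.56 in null-labelled and -1 in control libraries. Among the 25 were Ins1, Ins2, Iapp, Sst, Rbpjl, Prss1 and Krt19, and among the 6 were Hba-x, Hmga2 and Hsd3b6. The null-labelled libraries at E14.5 parted in the way the controls did, with a median log2 difference of the 147 genes from the E13.5 control mean of 0.96 in null 1 and 1.59 in null 2.

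A test of whether the stage change differed between genotypes called 0 of 18898 genes in edgeR, with 454 (2.4%) at an unadjusted p under 0.05. DESeq2 called 0 higher and 4 lower, and limma-voom called 0. None of the 4 DESeq2 genes was among the 152 chosen for naming. With no filter on low counts edgeR called 51 genes, 12 of them among the 152, which were Barx1, Cela2a, Ddx3y, Hbb-bs, Ins2, Myh8, Nfam1, Prss1, Prss3, Rdh10, Tgfbi and Tlx1. None of the 12 was called in any other alternative, and with 2 null-labelled libraries a stage a difference in size may have gone undetected.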

How the data were processed

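Whole pancreas was profiled by poly(A) RNA sequencing (NEBNext Ultra II, per the labels' protocols). The deposited table gives raw read counts per gene for 54532 genes, made by the authors with TopHat and HTSeq on mm10, per the submitters' processing notes, which also name DESeq2. Neither versions nor a strand setting could be read from the labels or notes, and overlapping antisense genes cannot be told apart.

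The main test was edgeR's quasi-likelihood F test (edgeR 4.0.16, R 4.3.3; TMM, 4 group means over 10 libraries, 6 residual degrees of freedom). Filtering by expression within groups left 18898 genes, holding 99.91% of counts. Benjamini-Hochberg adjustment ran over all of them, with calls at an adjusted p under 0.05. Each SE was taken as the absolute log2 fold change over root F. The alternatives were DESeq2 1.42.0, limma-voom (limma 3.58.1), other scalings and filters, a replicate block, only the controls, and libraries left out. Motifs were counted with Python 3.11.15.

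The members and the 45 gene lists were chosen with earlier results of these data known. Genes were named by rule: up to 12 per direction by fold change (mean of at least 5 CPM, no overlap), 8 by difference in level, called members of each list, or 2 abundant uncalled ones, and a fixed set. All 152 matched GENCODE M21 on GRCm38 by identifier. Single genes named outside that rule (Col6a6, Prss2, Try5, Trbc2, Ctrc, Amy2b, Wt1, Upk3b, Msln, Col3a1, Gkn1, Cdx2, Sox2) were chosen after their values were seen, some of them as tissue markers. Libraries differed beyond counting noise within each stage (chi-square per gene 12.2 to 48.1), so none was a duplicate. On simulated counts for E14.5 against E13.5 controls, the 2-fold changes were found in 56 of 100 genes and the 4-fold ones in 86 of 100, while 11 of the unchanged among 18898 genes were called.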

Additional observations from a re-analysis of the deposited data

Results flagged for a closer look

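For 3 of the 152 genes chosen for naming, all libraries of 1 genotype moved 1 way between the stages and all libraries of the other moved the opposite way. The share of all genes tested that did so was not counted, so the 3 cannot be set against a background. Tlx1, a homeobox gene required for the spleen, was at 10, 10.7 and 9.58 CPM in E14.5 controls against 17.9, 15.4 and 19 CPM in E13.5 controls. In null-labelled libraries it was near the floor, at 0.502 and 1.35 CPM at E14.5 against 0.482 and 0.0861 CPM at E13.5. The log2 stage difference was -0.79 in controls and 1.78 in null-labelled libraries, and the difference of the 2, controls minus null-labelled, was -2.57 (SE 0.675). Cdh5, the endothelial cadherin gene, differed by 0.55 (SE 0.158), with stage differences of 0.15 in controls and -0.4 in null-labelled libraries. In controls its stages were barely apart, with the lowest E14.5 library at 121 CPM and the highest E13.5 library at 119 CPM. Cdkn1c, an imprinted cell cycle inhibitor gene, differed by -0.47 (SE 0.18), with -0.35 in controls and 0.12 in null-labelled libraries. The edgeR adjusted p of the difference was 1 for each of the 3, so none passed the test. Tlx1 alone of the 3 was called when the filter on low counts was dropped.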

How the results depend on the processing

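Counts are given as higher and lower at E14.5. In controls they were 147 and 64, and became 630 and 455 with DESeq2, 31 and 26 with limma-voom, 813 and 479 with no low-count filter, 231 and 99 with only the 6 control libraries, and 1 and 0 at an adjusted p under 0.01. Leaving out 1 control library gave 0 to 728 higher and 0 to 482 lower, and leaving out both controls numbered 1 gave 390 and 216. In null-labelled libraries they were 38 and 9, and became 425 and 225 with DESeq2, 21 with limma-voom (higher), 609 and 279 with no filter, 264 and 103 without both controls numbered 1, and 13 to 199 higher and 6 to 67 lower with 1 control library left out. The genotype difference gave 0 and 0, and 0 and 4 with DESeq2 and 16 and 35 with no filter. The prior degrees of freedom were 6.31 with the filter and infinite when it was dropped. RLE scaling, library totals and a minimum of 5 CPM kept the control counts within 1.5 times. With 1 library fewer there are fewer residual degrees of freedom.

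Same-numbered control libraries of the 2 stages deviated from their group means with correlations of 0.3, 0.039 and 0.16 across genes. Each E14.5 control correlated best with the E13.5 control of its own number, for number 2 at 0.039 against 0.03 with E13.5 control 3. From the other side, E13.5 control 2 correlated best with E14.5 control 3, at 0.11. The labels do not say what the numbers stand for, so the main test did not take them as pairing. Whether same-numbered libraries share a litter or day was not tested. Blocking on replicate number called 930 and 677 in controls, 597 and 390 in null-labelled libraries and 0 and 0 for the genotype difference, and 1016 and 733 with only the 6 control libraries. The sign of the log2 fold change held in 2386 of 2419 comparisons over the 152 named genes and in all of those of the 71 called genes.

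The other 33 came from 14 uncalled genes, and the cause was not tested. With 1 control library left out the log2 fold change ran from -0.14 to 0.03 for Acly, -0.36 to 1.4 for Alb, -0.15 to 0.14 for Ambp, -0.18 to 0.52 for Ddx3y, -0.18 to 0.03 for Dlk1, -0.08 to 0.02 for Ncl, -0.37 to 0.06 for Neurog3, 0 to 0.12 for Nrp1, -0.04 to 0.23 for Pdx1, -0.06 to 0.12 for Top2a, -0.54 to 0.43 for Xist, -0.24 to 0.06 for mt-Co1 and -0.24 to 0.02 for mt-Cytb. Without both controls numbered 1 it was -0.57 for Alb, -0.09 for Ambp, -0.49 for Ddx3y, 0.03 for Lrp6, 0 for Nrp1, 0.58 for Xist and 0.03 for mt-Co1, against 0.64, 0, 0.15, -0.04, 0.05, -0.24 and -0.07 with all libraries. With library totals it was -0.05 for Ambp, -0.01 for Nrp1 and -0.04 for Top2a, with no filter 0 for Ambp, and with the replicate block -0.01 for Ddx3y.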
